A study of Homo sapiens with 24 samples.

Results

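This report follows 10 genes that canonical Wnt signalling is known to switch on, most of which feed back on the pathway: NOTUM, NKD1, AXIN2, LGR5, RNF43, ZNRF3, DKK1, TCF7, LEF1 and SP5. They were taken by name from a table of 59385 gene symbols, and were chosen with earlier results of these data known. RNA was sequenced from 24 libraries of A549 and H1299, both established human non-small cell lung carcinoma lines. Each line carried 1 of 4 lentiviral constructs, stably expressed: a FLAG-tagged empty vector (Ctr), or FLAG-tagged SIRT6 as wild type (WT), as K3R, a triple mutant that cannot be acetylated, or as K3Q, a triple mutant that imitates acetylation. SIRT6 is a nuclear NAD-dependent deacetylase. All groups therefore carry a lentiviral insert, the cells keep their own SIRT6 gene, and the labels do not say whether a line is a clone or a pool. Every line and construct has 3 libraries, named here by replicate and then batch as the labels number them: 1-1 (replicate 1 of batch 1), 1-2 (replicate 1 of batch 2) and 2-2 (replicate 2 of batch 2).

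In canonical Wnt signalling, a Wnt ligand binds Frizzled and LRP receptors at the cell surface, β-catenin escapes destruction in the cytoplasm, and it joins TCF and LEF proteins on DNA to switch on target genes. Many of those targets act back on the pathway: NOTUM removes a lipid from Wnt ligands, DKK1 blocks LRP co-receptors, RNF43 and ZNRF3 remove Frizzled from the membrane, NKD1 and AXIN2 dampen signalling inside the cell, LGR5 binds R-spondins, and TCF7, LEF1 and SP5 act in the nucleus. The family is widely read as a gauge of β-catenin output in epithelial cells.

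The DNA core that TCF and LEF proteins bind was searched in 1 form, CTTTGA, read on either strand as CTTTGA or TCAAAG. Other forms of the core were not counted. RefSeq windows on GRCh38.p14, from 250 bases before to 50 after a gene's start, were at hand for 5 of the 10 genes: SP5, DKK1, LEF1, TCF7 and RNF43. This form lay in 2 of their 7 windows, those of SP5 and DKK1, against 12.9% of all 35116 windows. The SP5 window held 3 copies, at 147, 109 and 83 bases before the start, a number reached by 0.0997% of windows, and the DKK1 window held 2, at 149 and 95 bases before the start, a number reached by 1.29%. The stretches before both starts are shown because they carry every copy of this form found in the 7 windows, with those copies in capitals. They are chr2:170715087-170715336 for SP5 and chr10:52314031-52314280 for DKK1, both on the plus strand. A match is a string of letters, and binding was not measured.
SP5: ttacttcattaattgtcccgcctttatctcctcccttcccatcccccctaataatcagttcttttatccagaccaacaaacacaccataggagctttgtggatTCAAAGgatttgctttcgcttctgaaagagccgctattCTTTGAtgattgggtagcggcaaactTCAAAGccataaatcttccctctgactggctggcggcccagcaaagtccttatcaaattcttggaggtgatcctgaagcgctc
DKK1: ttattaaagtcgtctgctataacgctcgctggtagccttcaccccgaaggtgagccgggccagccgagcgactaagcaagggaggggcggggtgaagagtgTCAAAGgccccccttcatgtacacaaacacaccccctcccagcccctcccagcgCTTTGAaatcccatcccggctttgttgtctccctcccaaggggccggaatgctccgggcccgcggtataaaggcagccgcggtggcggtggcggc

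Libraries held 16434492 to 19412274 counts in A549 and 14943189 to 22856407 in H1299. Levels are given as CPM, read counts brought to a common library size with TMM scaling. SIRT6 itself was at 27.4 ± 5.03 CPM in A549 Ctr (SD, n = 3, as for every ± on a CPM level), and the WT, K3R and K3Q cells held 2352 ± 810, 2412 ± 990 and 1673 ± 114 CPM. The H1299 cells held 37.3 ± 5.21 CPM with the empty vector, 3742 ± 2200 with WT, 4103 ± 1514 with K3R and 12910 ± 2066 with K3Q, so the constructs were not matched in level, and K3Q exceeded WT there by 1.78 on the log2 scale (adjusted p = 0.0183, edgeR). Epithelial markers were present in A549, while H1299 kept the keratins KRT8 and KRT18 and had almost none of the others. KRT8 was at 3119 to 8202 CPM in A549 and 239.9 to 452.5 in H1299, and KRT18 at 1191 to 3585 and 363.4 to 608.8. In H1299 KRT19, EPCAM and CDH1 had medians of 0, 0.145 and 0.0214 CPM, against 266.3, 12.7 and 39.4 in A549. The mesenchymal filament VIM was at 827.7 to 1287 CPM in H1299 and 365.7 to 589.4 in A549. The other mesenchymal markers overlapped between the lines: CDH2 was at 34.1 to 44.4 CPM in H1299 and 18.4 to 70.7 in A549, and ZEB1 at 19.4 to 29.2 and 15.8 to 21.5. The summed leukocyte markers were at or below 0.879 CPM in every library. The A549 K3Q libraries 1-2 and 2-2 stood apart from the rest: they differed by a chi-square per degree of freedom of 2.6, against 16.1 to 71.5 in the other 23 pairs within groups. That is above sampling noise, so they were kept as separate libraries, and the NOTUM and NKD1 comparisons of A549 K3Q with WT and K3R are also given with the pair summed.

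The resting levels of several of these genes differed between the lines. In the empty-vector cells, 7 of the 9 testable genes differed between A549 and H1299 at an adjusted p under 0.05 (edgeR quasi-likelihood test, Benjamini-Hochberg over 18102 genes), as did 63.8% of all genes tested, so the count does not set the family apart. NKD1, AXIN2, RNF43, ZNRF3 and DKK1 were higher in A549, and LEF1 and SP5 were higher in H1299. The log2 difference, A549 minus H1299, was 4.26 ± 0.40 (SE) for DKK1, 3.42 ± 0.37 for NKD1, 2.19 ± 0.23 for AXIN2 and 1.72 ± 0.16 for ZNRF3, with adjusted p of at most 6.37e-08. It was 8.17 ± 0.56 for RNF43, -6.99 ± 0.545 for LEF1 and -4.02 ± 0.58 for SP5, each of which had very few counts in the lower line. NOTUM, in contrast, differed by -0.02 ± 0.39 (adjusted p = 0.969). Bulk RNA cannot tell fewer expressing cells from less RNA per cell.

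**Figure D1:**
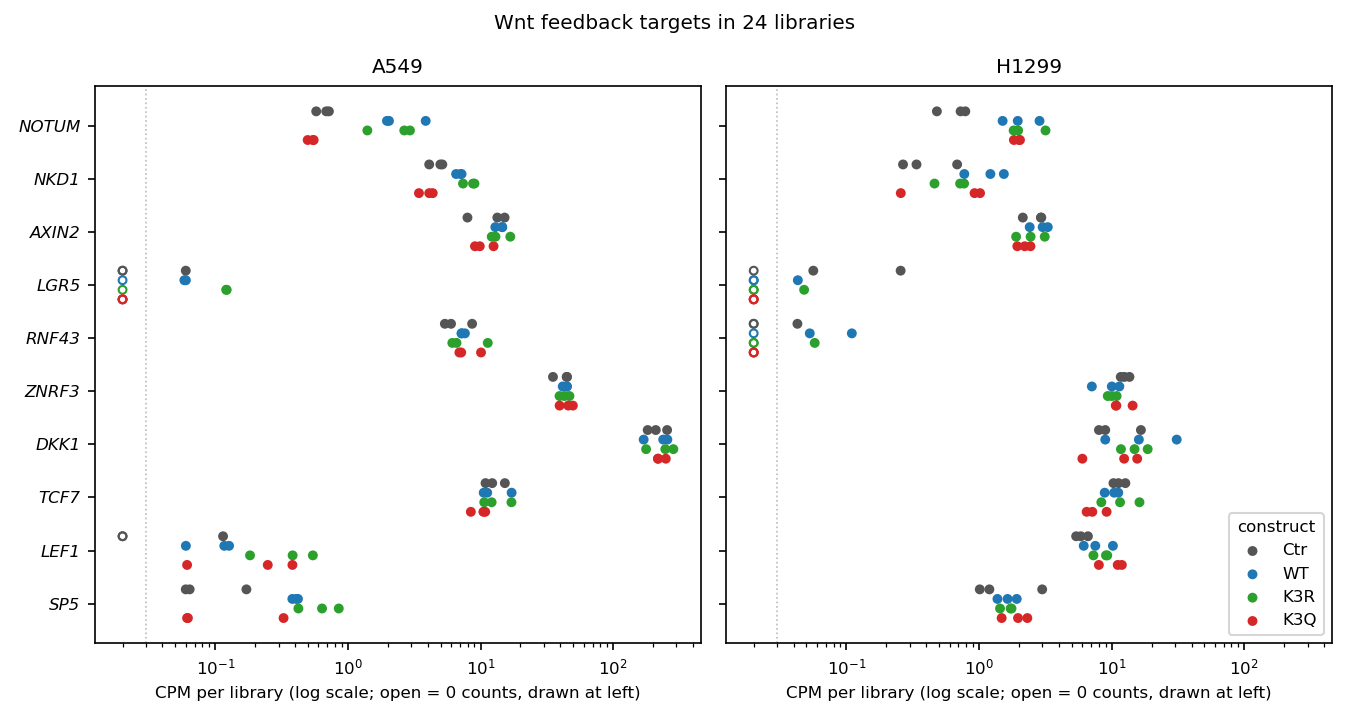
Level of each gene in every library, in CPM on a log axis, by line and construct, with open points at the left for libraries at 0 counts. DKK1 sits highest in A549, LGR5 is near 0 in both lines, RNF43 is near 0 in H1299, and LEF1 and SP5 are near 0 in A549.

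Levels per kilobase of exon allow genes to be ranked against each other, given a length that joins all annotated exons of a gene. That length was 17.4 kilobases for NKD1 and 10.1 for TCF7, against 3.02 for NOTUM and 2.06 for SP5. Which isoforms the cells express was not examined, so the places depend on the length used. In A549 Ctr the order by mean CPM per kilobase was DKK1 (97.8 ± 16.7), ZNRF3 (5.97 ± 0.80), AXIN2 (2.33 ± 0.72), TCF7 (1.27 ± 0.22), RNF43 (0.889 ± 0.231), NKD1 (0.272 ± 0.032), NOTUM (0.219 ± 0.025), then SP5, LEF1 and LGR5 below 0.05. Neighbours overlapped in places: the libraries of TCF7 spanned 1.08 to 1.52 and those of RNF43 0.718 to 1.15, and those of NKD1 spanned 0.236 to 0.296 and those of NOTUM 0.191 to 0.238. In H1299 Ctr, DKK1 was again first at 5.08 CPM per kilobase, followed by ZNRF3 at 1.81, TCF7 at 1.14, LEF1 at 1.11, SP5 at 0.842, AXIN2 at 0.511 and NOTUM at 0.220. TCF7 and LEF1 differed there by less than their spread, and the place of SP5 is not settled, since its libraries were at 0.581, 0.492 and 1.45 and reached from the level of AXIN2 to above TCF7. NKD1 at 0.0247, LGR5 at 0.0199 and RNF43 at 0.0019 closed that order.

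Between constructs, few of the genes passed the test over all genes. In A549, 7 of the 10 had enough counts to be tested (LGR5, LEF1 and SP5 did not). None of the 7 passed in WT against Ctr, where 0.105% of all genes passed, in K3R against Ctr (0.118%), in K3Q against Ctr (0.0248%), in K3R against WT (0.0%), in K3Q against WT (0.0062%) or in K3Q against K3R (0.0062%). At an unadjusted p under 0.05 the edgeR counts were 2, 2, 0, 0, 2 and 2 in that order, beside 7.93%, 6.92%, 8.62%, 0.72%, 6.46% and 4.39% of all genes. DESeq2 called 1, 2, 0, 0, 2 and 2 at an adjusted p under 0.05, beside 178, 162, 154 and 0 of 16120 genes, 56 of 15182 and 23 of 14869. The genes behind every one of those nonzero counts were NOTUM and NKD1, or NOTUM alone for the single DESeq2 call.

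In H1299, 8 genes were testable (not LGR5 or RNF43). In WT against Ctr 1 of 8 passed, against 4.05% of all genes, and in K3R against Ctr 1 of 8 passed, against 3.25%; NOTUM was the gene in both. None passed in K3Q against Ctr (0.0615% of all genes), K3R against WT (0.0%), K3Q against WT (3.46%) or K3Q against K3R (0.449%). The edgeR counts at an unadjusted p under 0.05 were 3, 2, 3, 0, 0 and 1 over the 6 comparisons, beside 17.5%, 17.6%, 9.72%, 2.99%, 20.3% and 11.9% of all genes. DESeq2 called 1, 1, 2, 0, 0 and 0 at an adjusted p under 0.05. Beside these stood 1057 and 921 of 16262 genes, 126 of 14055, 0 of 16262, 1123 of 15000 and 337 of 16262. In K3Q against Ctr DESeq2 tested 7 of the 8, and its calls were NOTUM and LEF1. Shares of 1 in 8 from so short a list are no measure of the list, and each gene is taken up in turn below. The median log2 change over the tested genes was 0.18 in A549 WT and 0.19 in A549 K3R against Ctr, -0.23 in A549 K3Q, and 0.27, 0.18 and 0.04 in H1299 WT, K3R and K3Q, while the medians over all genes in the same comparisons lay between -0.0144 and -0.000353.

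**Figure D2:**
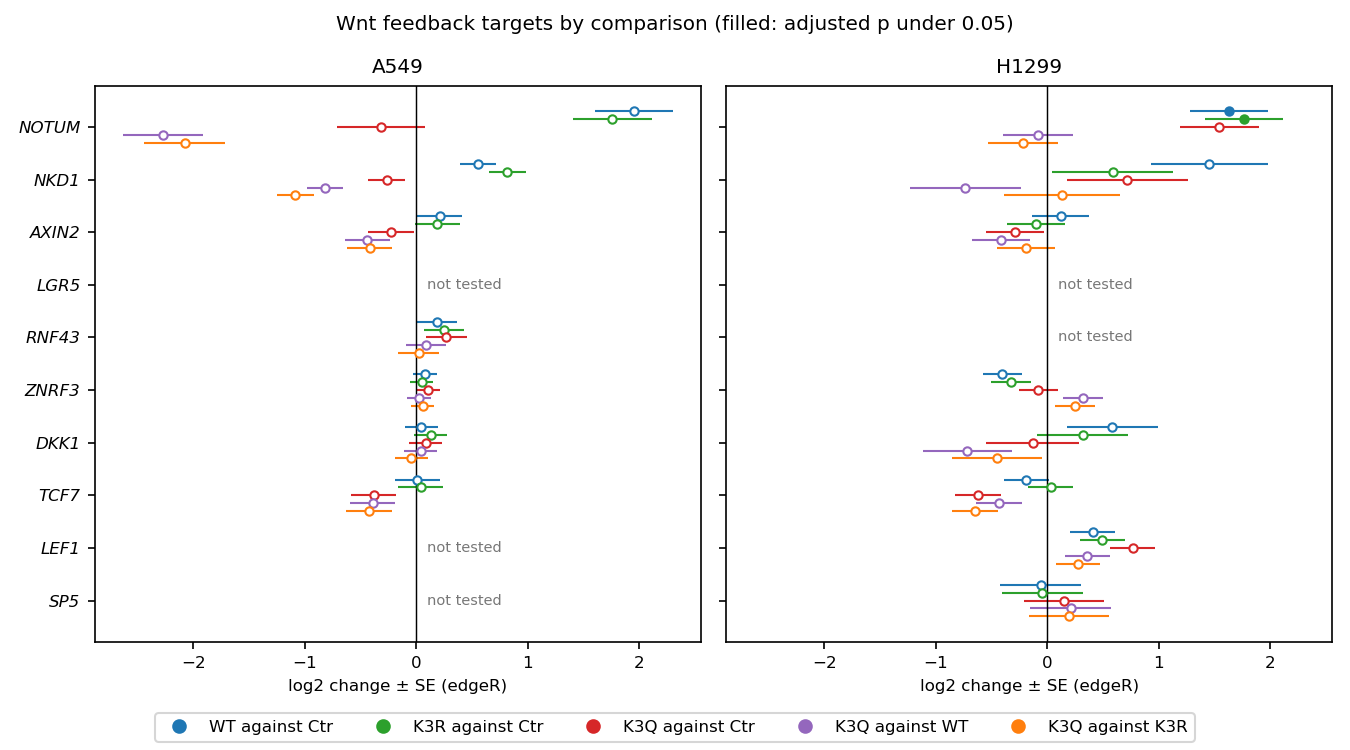
Log2 change of each tested gene with its SE (bars) in each line, for WT, K3R and K3Q against Ctr and for K3Q against WT and K3R; filled points passed at an adjusted p under 0.05. NOTUM is near 1.96 and 1.76 for A549 WT and K3R and at -0.32 for A549 K3Q, whereas the 3 H1299 changes of NOTUM against Ctr lie between 1.54 and 1.77.

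NOTUM, the secreted enzyme that strips the lipid from Wnt ligands (chr17:81952507-81961840, minus strand), had the clearest pattern. In A549 Ctr libraries 1-1, 1-2 and 2-2 it was at 0.687, 0.577 and 0.719 CPM. The WT libraries, in the same order as always below, held 2.04, 1.97 and 3.86 CPM, the K3R libraries 1.40, 2.66 and 2.94, and the K3Q libraries 0.545, 0.552 and 0.498. Every WT and K3R library lay above every Ctr library, and every K3Q library lay below every Ctr library. The K3Q gap was narrow, with 9 counts in both K3Q 1-2 and Ctr 1-2. Such levels are low: the 3 libraries of a group summed to 33, 131, 113 and 27 counts in Ctr, WT, K3R and K3Q.

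The A549 log2 change of NOTUM was 1.96 ± 0.35 (SE) in WT against Ctr (adjusted p = 0.0672, edgeR) and 1.76 ± 0.35 in K3R against Ctr (adjusted p = 0.11), neither past the threshold. In a further setting the replicate was a block, with a term for each library number (1-1, 1-2 and 2-2) in place of batch. With this block both passed, at 1.94 (adjusted p = 0.0252) and 1.78 (adjusted p = 0.0419). With libraries 1-1 and 1-2 of each group summed neither passed, at 2.10 and 1.86 (adjusted p = 1 for both). K3Q against Ctr gave -0.32 ± 0.40 (adjusted p = 0.801). K3Q stood 2.27 ± 0.36 below WT on the log2 scale (log2 change -2.27, adjusted p = 0.115) and 2.08 ± 0.36 below K3R (log2 change -2.08, adjusted p = 0.258), and with the near-alike K3Q libraries summed these were -2.23 (adjusted p = 0.629) and -2.03. K3R and WT differed by -0.20 ± 0.31, less than the spread between their libraries.

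In H1299 the Ctr libraries held 0.727, 0.788 and 0.481 CPM of NOTUM. WT libraries held 1.51, 1.96 and 2.86, K3R libraries 1.97, 1.82 and 3.17, and K3Q libraries 2.04, 1.83 and 2.01. All 9 SIRT6 libraries lay above all 3 Ctr libraries, K3Q included. NOTUM rose in WT by 1.63 ± 0.35 on the log2 scale (adjusted p = 0.0221, edgeR) and in K3R by 1.77 ± 0.35 (adjusted p = 0.0167). K3Q against Ctr was 1.54 ± 0.35 (adjusted p = 0.156), which passed with the replicate as a block (1.53, adjusted p = 0.0475) and not with replicate 1 summed (1.62, adjusted p = 1). K3Q differed from WT by -0.08 ± 0.32 (adjusted p = 0.919) and from K3R by -0.22 ± 0.31 (adjusted p = 0.846).

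The H1299 NOTUM calls, though not the size of the changes, depended on single libraries. Over all alternatives the log2 change stayed between 1.37 and 1.92 in WT and between 1.5 and 1.96 in K3R. The WT call was lost without Ctr 1-2 (adjusted p = 0.06), Ctr 2-2 (0.0927) or WT 2-2 (0.0998), and the K3R call without Ctr 2-2 (0.0762), K3R 1-1 (0.0704) or K3R 2-2 (0.0769). Within batch 2 alone the changes were 1.92 (adjusted p = 0.114) and 1.96 (0.147), and batch 1 held 1 library per construct, so it allowed no test. NOTUM was highest in library 2-2 of WT in both lines and of K3R in both lines, and so was SIRT6, at 2982 CPM in A549 WT, 6278 in H1299 WT, 3424 in A549 K3R and 5658 in H1299 K3R. The K3Q libraries held 10580 to 14510 CPM of SIRT6 in H1299, with NOTUM at 1.83 to 2.04. In A549 K3Q they held 1561 to 1788 CPM of SIRT6, with NOTUM at 0.498 to 0.552. H1299 WT 1-1 held more SIRT6 than WT 1-2 (2601 and 2346 CPM) but less NOTUM (1.51 and 1.96). The part of SIRT6 level in these NOTUM values was not tested.

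NKD1, which binds Dishevelled and dampens signalling inside the cell (chr16:50548330-50649249, plus strand), followed a like order in A549. Ctr libraries held 4.98, 4.10 and 5.15 CPM, WT libraries 7.09, 6.55 and 7.20, K3R libraries 8.78, 7.38 and 9.0, and K3Q libraries 4.36, 3.43 and 4.11. WT and K3R did not overlap Ctr or K3Q, while K3Q and Ctr overlapped. The log2 change against Ctr was 0.55 ± 0.16 in WT (adjusted p = 0.324) and 0.82 ± 0.16 in K3R (adjusted p = 0.109, 0.0335 with the replicate block and 1 with replicate 1 summed), and -0.26 ± 0.17 in K3Q (adjusted p = 0.676). K3Q was below WT by a log2 change of -0.82 ± 0.17 (adjusted p = 0.288) and below K3R by -1.08 ± 0.17 (adjusted p = 0.174). With the alike K3Q libraries summed these were -0.80 (adjusted p = 0.988) and -1.07.

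In H1299 NKD1 was scarce: the Ctr libraries held 0.684, 0.338 and 0.267 CPM, those of WT 0.775, 1.22 and 1.54, those of K3R 0.772, 0.720 and 0.462, and those of K3Q 0.926, 1.02 and 0.257. Only the WT libraries cleared all Ctr libraries. The WT change was 1.45 ± 0.52 on the log2 scale and did not pass (adjusted p = 0.152).

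Counted by libraries that do not overlap, A549 WT was above Ctr for 2 of 7 genes, NOTUM and NKD1, against 3.57% of all genes, and A549 K3R for the same 2 genes, against 3.46%. A549 K3Q was below WT for 3 of 7, NOTUM, NKD1 and AXIN2, against 4.35%, and below K3R for NOTUM and NKD1, against 3.82%. In H1299, WT was above Ctr for NOTUM and NKD1 (2 of 8, against 9.4% of all genes). K3R and K3Q were above Ctr for NOTUM and LEF1, 2 of 8 in each, against 10.4% and 5.66%. In the lower direction, ZNRF3 was below Ctr in H1299 WT (1 of 8, against 9.46% of all genes) and K3R (1 of 8, against 9.22%), TCF7 in H1299 K3Q (1 of 8, against 6.17%), and TCF7 and NOTUM in A549 K3Q (2 of 7, against 5.53%). Both A549 gaps were narrow. NOTUM had 9 counts in K3Q 1-2 and in Ctr 1-2 (0.552 and 0.577 CPM), and TCF7 was at 10.85 CPM in K3Q 1-2 and 10.91 in Ctr 2-2. Neither change passed the edgeR test (log2 change -0.32, adjusted p = 0.801, for NOTUM and -0.38, adjusted p = 0.637, for TCF7). Between K3R and WT, NKD1 alone did not overlap, higher in K3R in A549 (1 of 7, against 1.21%) and lower in K3R in H1299 (1 of 8, against 3.58%). These comparisons share their Ctr libraries.

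**Figure D3:**
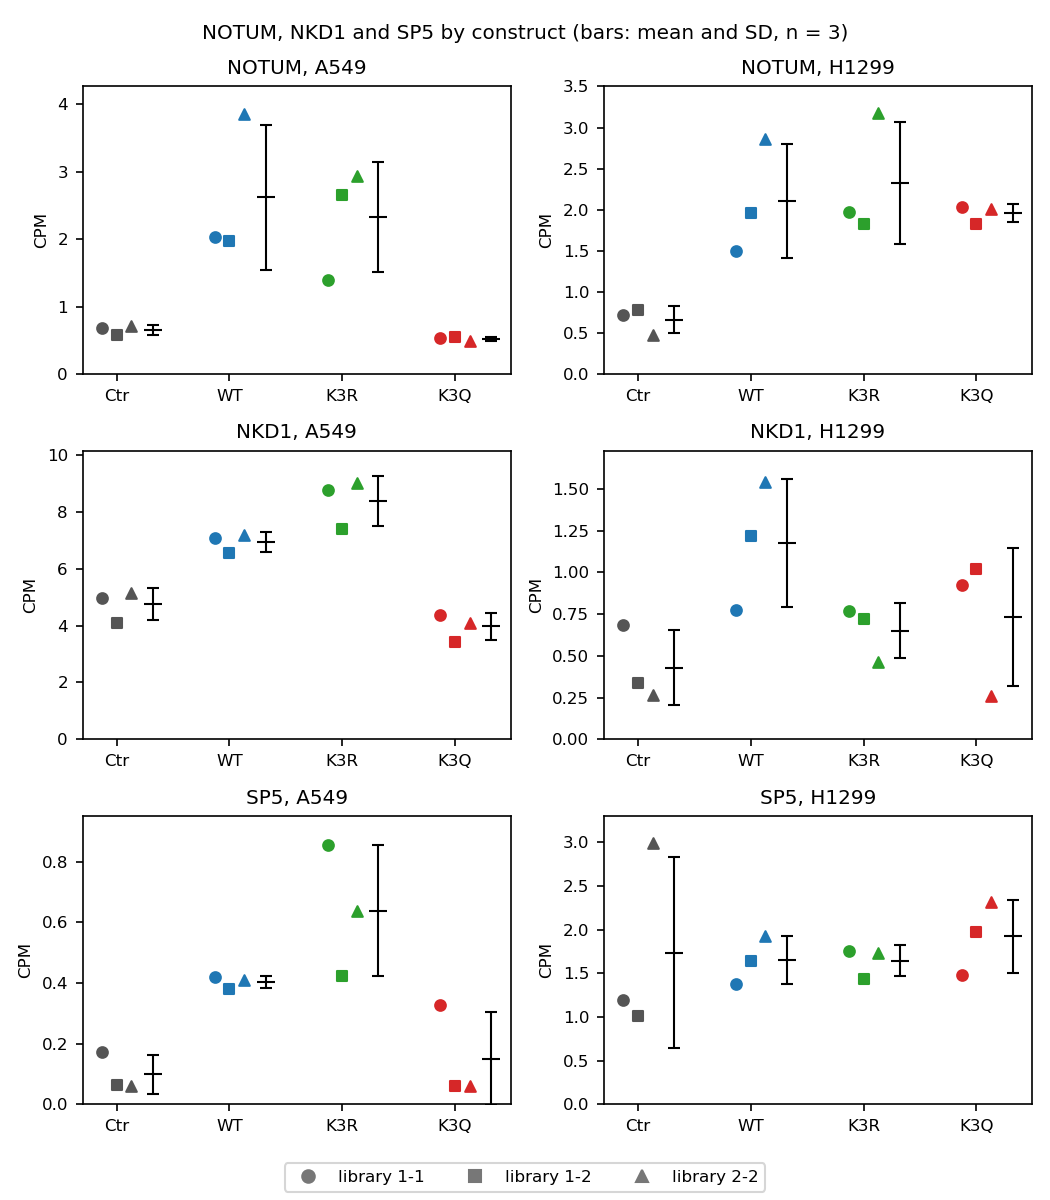
CPM of NOTUM, NKD1 and SP5 in each library by construct, with mean and SD (n = 3), for each line. In A549 all 3 genes have WT and K3R libraries above all Ctr libraries, and in H1299 every SIRT6 library lies above every Ctr library for NOTUM, while SP5 overlaps between constructs.

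AXIN2, the scaffold of the β-catenin destruction complex and a standard readout of the pathway (chr17:65528563-65561647, minus strand), gave no change past the test. The A549 Ctr libraries held 13.4, 15.2 and 7.97 CPM, those of WT 14.6, 14.6 and 12.9, those of K3R 16.8, 12.2 and 13.0, and those of K3Q 12.5, 9.87 and 9.08. K3Q lay below WT in every library, but the Ctr libraries spanned both. K3Q against WT was -0.44 ± 0.20 on the log2 scale (adjusted p = 0.781). H1299 levels of AXIN2 were 2.67 ± 0.46 CPM with the empty vector, 2.91 ± 0.45 with WT, 2.49 ± 0.61 with K3R and 2.20 ± 0.25 with K3Q, so the constructs overlapped.

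SP5, a zinc-finger repressor whose upstream stretch carried 3 copies of the form searched above (chr2:170715351-170718078, plus strand), was nearly silent in A549. Its Ctr libraries there had 3, 1 and 1 counts, those of WT 7, 6 and 7, those of K3R 14, 7 and 10, and those of K3Q 6, 1 and 1. WT and K3R lay above Ctr in every library, while K3Q overlapped it. The ratio of summed counts, scaled for depth, was 4.02 in WT against Ctr (95% exact interval 1.46 to 13.7, counting error only), 6.35 in K3R (2.45 to 20.9) and 1.57 in K3Q (0.453 to 6.1).

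K3Q against K3R gave an SP5 count ratio of 0.247 in A549 (0.0982 to 0.55, counting error only). With no filter on low counts, the edgeR log2 change of SP5 against Ctr was 2.04 ± 0.85 in WT (adjusted p = 0.551) and 2.64 ± 0.82 in K3R (adjusted p = 0.108). That of K3Q against K3R was -2.10 ± 0.77 (adjusted p = 0.382), so none of these passed. In H1299 SP5 was at 1.73 ± 1.09 CPM in Ctr, where library 2-2 alone was at 2.99, and WT, K3R and K3Q were at 1.65 ± 0.27, 1.64 ± 0.18 and 1.92 ± 0.42, with all constructs overlapping.

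Of the membrane genes, ZNRF3 (chr22:28883592-29057487, plus strand) hardly varied in A549, with means between 41.6 ± 5.55 CPM in Ctr and 45.0 in K3Q. The H1299 Ctr libraries were at 12.5, 13.6 and 11.7 CPM, those of WT at 10.0, 11.4 and 7.09, those of K3R at 10.0, 10.9 and 9.35, and those of K3Q at 10.7, 14.4 and 10.9. WT and K3R lay below all Ctr libraries and K3Q overlapped them. The WT change was -0.40 ± 0.18 on the log2 scale (adjusted p = 0.264).

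RNF43, the partner ubiquitin ligase of ZNRF3 (chr17:58352500-58417595, minus strand), was a gene of 1 line. In A549 Ctr it was at 6.67 ± 1.73 CPM, and WT, K3R and K3Q were at 7.34, 8.02 ± 2.88 and 8.06 ± 1.76, with the constructs overlapping. The H1299 libraries had 0 to 2 counts each and 5 in all 12. The Ctr libraries summed to 335 counts in A549 against 1 in H1299, a depth-scaled ratio of 403 with an exact 95% interval of 71.9 to 16000. LGR5, the R-spondin receptor (chr12:71439770-71586310, plus strand), had 7 counts over the 12 A549 libraries and 9 over those of H1299, 6 of them in Ctr 1-1, so no construct difference was detectable at this depth.

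DKK1, the secreted blocker of LRP co-receptors (chr10:52314296-52318042, plus strand), was the most abundant of the family in A549 and steady across constructs. With the empty vector it was at 216 ± 36.9 CPM, with WT at 222 ± 45.6, with K3R at 236 ± 54.4 and with K3Q at 228 ± 18.2. The H1299 Ctr libraries held 16.6, 8.95 and 8.02 CPM, those of WT 8.95, 16.0 and 30.9, those of K3R 11.8, 14.9 and 18.7, and those of K3Q 6.02, 12.4 and 15.6. The H1299 constructs overlapped. Library 2-2 was the highest of its 3 in WT, K3R and K3Q and the lowest in Ctr.

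The nuclear factors TCF7 and LEF1 bind DNA for β-catenin. TCF7 (chr5:134114711-134151865, plus strand) was at 12.3, 15.3 and 10.91 CPM in A549 Ctr and 8.45, 10.85 and 10.5 in K3Q, and WT (13.0 ± 3.63) and K3R (13.3 ± 3.38) overlapped Ctr. The H1299 libraries of Ctr held 12.7, 11.3 and 10.3 CPM, those of WT 8.86, 11.2 and 10.4, those of K3R 8.36, 11.6 and 16.2, and those of K3Q 6.48, 9.16 and 7.15. The H1299 K3Q libraries were below all Ctr libraries, with a log2 change of -0.62 ± 0.21 (adjusted p = 0.356), and stood below K3R by -0.65 ± 0.21 (adjusted p = 0.198). Its exons share 210 bases with SKP1 on the opposite strand, which had 60033 counts over the 24 libraries against 4850 for TCF7. With the strand setting of the counting unknown, reads of such partners cannot be told apart. The same holds for LEF1 with LEF1-AS1 (279 shared bases, 86 counts against 1962), RNF43 with TSPOAP1-AS1 (1521 bases, 131 against 1507) and DKK1 with PRKG1-AS1 (212 bases, 590 against 48149). On its own strand, RNF43 shares 143 bases with SUPT4H1 (22 counts) and 4326 with AC004687.2, and AXIN2 shares 1316 with AC004805.1. AC004687.2 and AC004805.1 are not among the counted symbols. How reads on bases shared within a strand were assigned is not stated, so the RNF43 and AXIN2 levels carry that limit.

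LEF1 (chr4:108047545-108168956, minus strand) was near absent in A549, with 2, 0 and 0 counts in the Ctr libraries, 1, 2 and 2 in those of WT, 3, 9 and 6 in those of K3R and 7, 1 and 4 in those of K3Q. Every K3R library exceeded every Ctr library, with a summed ratio of 9.21 (exact 95% interval 2.21 to 81.9, counting error only), and that of K3Q was 5.89 (1.31 to 54.1). Both Ctr counts came from library 1-1. With no filter on low counts the edgeR change was 3.06 ± 1.16 in K3R (adjusted p = 0.392) and 2.34 ± 1.19 in K3Q (adjusted p = 0.631). In H1299 its Ctr libraries held 6.62, 5.85 and 5.40 CPM, those of WT 7.53, 10.2 and 6.16, those of K3R 7.29, 9.27 and 9.06, and those of K3Q 8.01, 11.9 and 11.1. The K3Q and K3R libraries were all above Ctr, with log2 changes of 0.77 ± 0.20 (adjusted p = 0.243) and 0.49 ± 0.20 (adjusted p = 0.22). The K3Q change passed in 2 of 14 alternative settings, DESeq2 and no filter on low counts. Between the lines in Ctr, LEF1 summed to 360 counts in H1299 and 2 in A549.

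**Figure D4:**
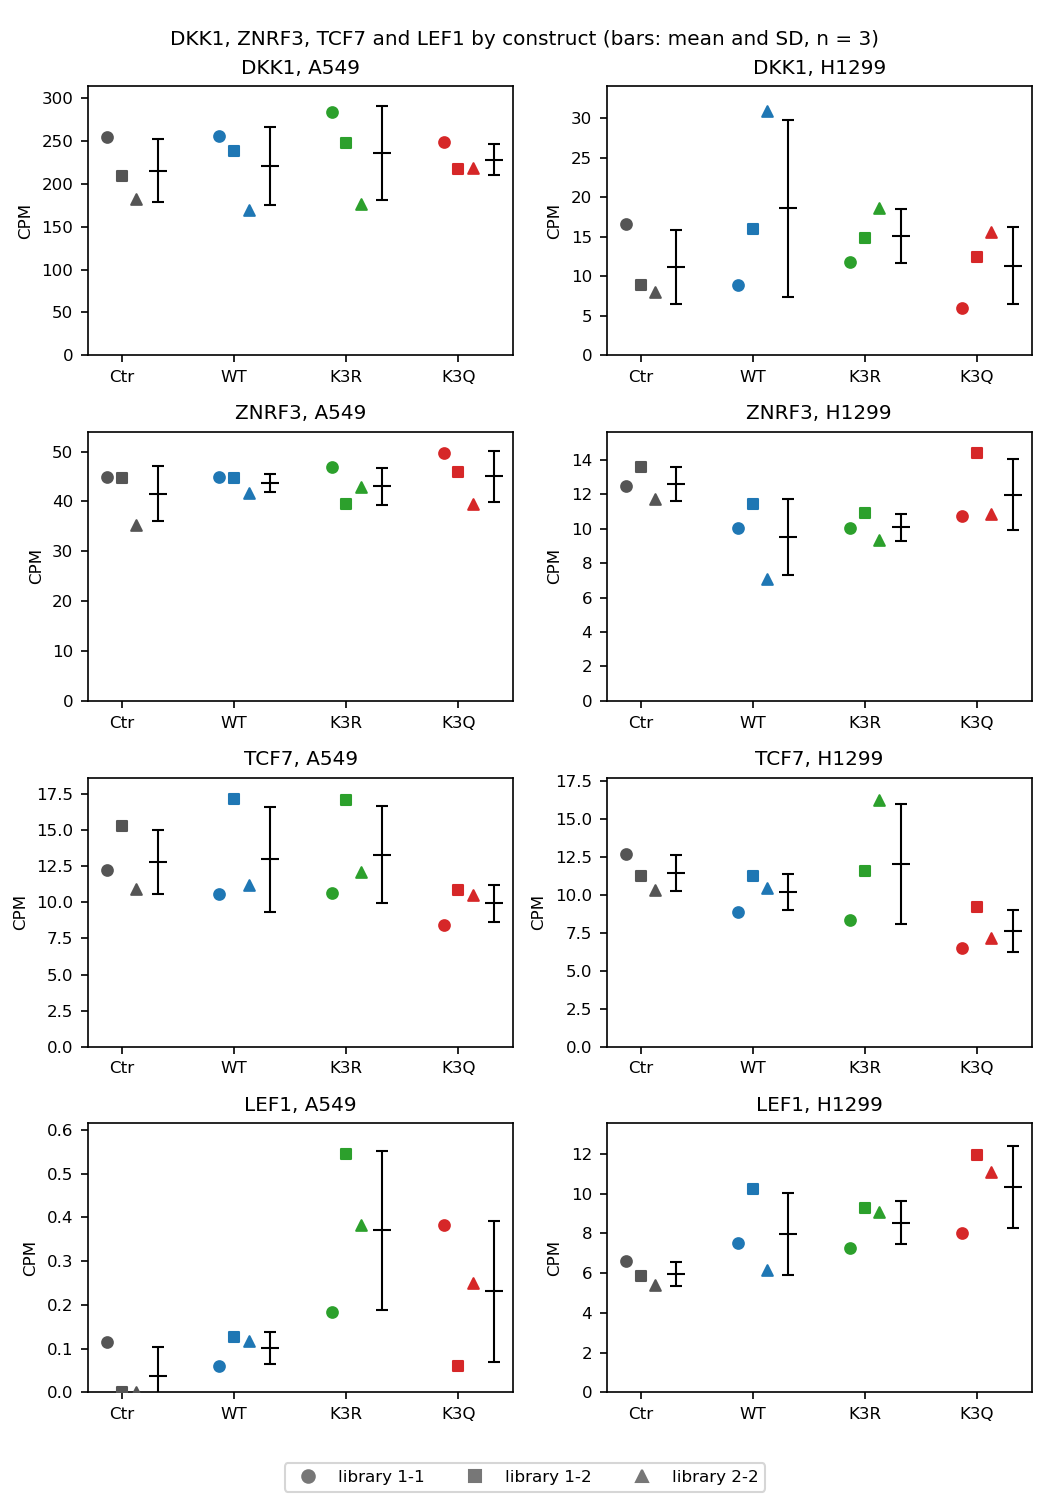
CPM of DKK1, ZNRF3, TCF7 and LEF1 in each library by construct, with mean and SD (n = 3), for each line. DKK1 and ZNRF3 in A549 stay level across constructs, and LEF1 in H1299 is highest in K3Q at 10.4 CPM on average.

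Whether a construct acted unequally in the 2 lines was tested as an interaction over all 24 libraries, and 0 of 9 genes passed in any of 5 such tests. Of all genes, 0.365% passed for WT against Ctr, 0.238% for K3R against Ctr, 0.011% for K3Q against Ctr, 0.16% where K3Q was set against WT and 0.0442% where it was set against K3R. The edgeR counts at an unadjusted p under 0.05 were 2, 2, 1, 3 and 3, beside 7.85%, 7.14%, 5.09%, 9.84% and 5.72% of all genes. DESeq2 called 0, 0, 0, 1 and 0, beside 198 of 17400 genes, 159 of 17751, 16 of 15996, 156 of 15294 and 66 of 14943. For NOTUM the K3Q change against WT was 2.20 ± 0.48 lower in A549 than in H1299 (log2 difference -2.20, adjusted p = 0.0741), and NOTUM was the gene of the DESeq2 call. The difference in K3Q against Ctr was -1.86 ± 0.53 (adjusted p = 0.639). The differences in WT and K3R against Ctr were 0.35 ± 0.50 and 0.01 ± 0.49, and that in K3Q against K3R was -1.87 ± 0.48. SP5 differed by 2.015 ± 0.80 in WT and 2.67 ± 0.77 in K3R against Ctr, and by -1.56 ± 0.75 and -2.21 ± 0.72 in K3Q against WT and K3R. The other genes in the unadjusted counts were LEF1 (2.49, K3R against Ctr), ZNRF3 (0.48, WT against Ctr), RNF43 (3.165, K3Q against WT) and NKD1 (-1.21, K3Q against K3R). SP5 and LEF1 in A549, and RNF43 in H1299, were near 0 counts.

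Other genes of the pathway, 97 in lists of ligands, receptors, inhibitors, transducers, nuclear factors and further targets, were read beside the 10. In A549, 77 were tested and 1 passed in WT against Ctr, beside 0.105% of all genes: TLE4, a co-repressor of TCF proteins, rose by 0.67 ± 0.10 on the log2 scale (adjusted p = 0.0357). In K3R and K3Q against Ctr 0 passed by edgeR, beside 0.118% and 0.0248% of all genes. Of the 77, 15, 18 and 19 had an unadjusted p under 0.05 in WT, K3R and K3Q against Ctr, beside 7.93%, 6.92% and 8.62% of all genes. In H1299, 69 were tested. WT against Ctr gave 5 higher and 6 lower, beside 4.05% of all genes called, and K3R against Ctr 5 higher and 8 lower, beside 3.25%. K3Q against Ctr gave 0, beside 0.0615%. Of the 69, 24, 24 and 16 had an unadjusted p under 0.05 in WT, K3R and K3Q against Ctr, beside 17.5%, 17.6% and 9.72% of all genes.

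Of the ligand and secretion genes, 3 of 12 tested were called higher in H1299 WT and 3 in K3R: WNT7B, WNT16 and WLS. Of all 16262 genes tested, 410 were called higher in WT and 319 in K3R. WNT7B, a secreted Wnt, had 0.171, 0.169 and 0.321 CPM in the Ctr libraries, 1.03, 3.44 and 8.25 in those of WT, 1.84, 4.47 and 14.3 in those of K3R, and 0.231, 0.339 and 1.39 in those of K3Q. It rose by 4.06 ± 0.69 in WT (adjusted p = 0.0066) and 4.77 ± 0.68 in K3R (adjusted p = 0.00356), and K3Q fell below K3R by 3.28 (log2 change -3.28 ± 0.58, adjusted p = 0.0301). WNT16 rose by 1.60 ± 0.25 in WT (adjusted p = 0.0044) and by 1.29 ± 0.25 in K3R (adjusted p = 0.0154), and K3Q was below WT by -1.61 ± 0.25 (adjusted p = 0.0068). WLS, which carries Wnt ligands to the surface, the co-receptor LRP5 and CTNNBIP1, an inhibitor of β-catenin binding to TCF, rose in both WT and K3R.

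Among the H1299 genes that fell were AMER1, an inhibitor of β-catenin that recruits the destruction complex (-1.71 ± 0.25 in WT, adjusted p = 0.00396), TCF7L1, a mostly repressive TCF (-1.37 ± 0.25 in WT, adjusted p = 0.0101, and -1.79 ± 0.26 in K3R, adjusted p = 0.00408), TRABD2A, a Wnt-cleaving protease, KREMEN1, a DKK receptor, and PYGO1, a β-catenin co-factor, all lower in WT and in K3R. MYC, a growth-promoting transcription factor, fell in WT (-0.66 ± 0.14, adjusted p = 0.0222), and LGR4, FZD3 and BCL9 fell in K3R. K3Q against WT gave 3 higher (MYC, AMER1 and AXIN1) and 4 lower (WNT16, EPHB2, WNT7B and FZD6), beside 3.46% of all genes called. The lists were chosen with earlier results of these data known.

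The genes most like NOTUM over the 24 libraries, after each line's mean was removed, were CHRM4 (Pearson r = 0.85), HSD11B2 (0.847) and KIF1A (0.835) among 14346 genes. For NKD1 they were DHRS2 (0.799), LZTS1 (0.771) and GRIK5 (0.754), and for AXIN2 GPR161 (0.784), PCDH7 (0.709) and ZNF184 (0.695). NOTUM and NKD1 themselves had r = 0.635 over all libraries, 0.873 in the 12 of A549 and 0.504 in the 12 of H1299. These values describe libraries that share construct, batch and depth.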

How the data were processed

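The deposited table holds raw counts made by the authors: reads per gene symbol, not normalised, in 24 libraries. Per the submitters' processing notes, FastQC, cutadapt, STAR and featureCounts were used with GRCh38. Their versions, the annotation release and the strand setting are not stated (not given in the sources used here). Per the labels' protocols, libraries were made from total RNA with a SMARTer mRNA kit.

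From these counts, genes were filtered with filterByExpr and libraries scaled with TMM. The quasi-likelihood test of edgeR 4.0.16 (with limma 3.58.1 and R 4.3.3) was fitted with construct and batch, in each line on its 12 libraries and over all 24 for line differences. Adjusted p-values are Benjamini-Hochberg over all genes tested, with a threshold of 0.05. SE is the log2 change divided by the square root of F. CPM uses TMM sizes over all 24 libraries, and CPM per kilobase uses union exons of GENCODE 29, the source of the gene coordinates. DESeq2 1.42.0 was an alternative. Count ratios have exact conditional intervals. The code was tested on simulated data. Promoter windows are from RefSeq (GRCh38.p14), and the motif search covered CTTTGA alone, on both strands.

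All 10 genes are named, with log2 changes where the unadjusted p was under 0.05 and for the other comparisons described. Other pathway genes are those that passed, with values for those of lowest p. The genes and lists were chosen with earlier results of these data known. Libraries 1-1 and 1-2 of a group share a replicate number, and nothing says they are separate cultures, so p-values may partly measure technical spread. Same-numbered libraries deviated together from their group means with correlations of 0.134 to 0.549 in H1299 and of at least 0.278 in A549, apart from A549 K3Q 2-2 (0.0569 to 0.119). Library 1-1 is the only batch 1 library of each group, so a shared batch difference also enters these correlations. They cannot show a pairing beyond batch. The replicate block, a term for each library number (1-1, 1-2 and 2-2) in place of batch, is read only as an alternative setting. Alternatives were no batch term, DESeq2, the replicate block, size factors by RLE, no filter on low counts, replicate 1 summed, batch 2 alone, 1 fit of 24 libraries, the alike A549 K3Q pair summed, and leaving out each library.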

Additional observations from a re-analysis of the deposited data

How the results depend on the processing

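Of 488 alternative values for 35 log2 changes, 449 kept direction and side of the threshold, 29 newly passed, 10 no longer passed and 0 reversed. With the replicate block, genes of the family called went from 0 to 1 in A549 WT against Ctr, 2 in K3R against Ctr, 1 in K3Q against WT, 1 in K3Q against K3R (NKD1), 1 in H1299 K3Q against Ctr and 1 in the line difference of K3Q against WT. The block changed no other call. A pairing beyond batch was not tested in any group. In A549, K3Q library 2-2 deviated with the other 2-2 libraries at correlations of only 0.0569 to 0.119, while the rest were at least 0.278. With replicate 1 summed, A549 WT and K3R against Ctr stayed at 0. With DESeq2 these counts were 1, 2, 2, 2, 2 and 1, and with no low-count filter 1, 1, 1, 2, 2 and 2. With 1 fit of all libraries, A549 WT against Ctr, K3R against Ctr and K3Q against WT each gave 1. In H1299, no filter gave 2 in WT against Ctr (NOTUM and DKK1), 1 in K3Q against WT (DKK1) and 1 in K3Q against K3R (TCF7). With replicate 1 summed, or batch 2 alone, the single call in H1299 WT and in K3R against Ctr became 0. Leaving out each library gave 0 to 2 in H1299 WT against Ctr (2 without Ctr 1-1) and 0 to 1 in K3R against Ctr. The 7 genes that differed between lines in Ctr were the same under every alternative run. The cause of these changes was not tested. Counts over all genes moved more: A549 WT against Ctr had 17 calls, 178 by DESeq2 and 105 with the block, and H1299 WT against Ctr 659, 1057 and 1585, but 90 in batch 2 alone. Depth limits NOTUM, SP5, LEF1 in A549, LGR5, and RNF43 in H1299, since 1 count is about 0.06 CPM.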
